A study of Mus musculus with 6 samples.

Results

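The nuclear genes for subunits of respiratory chain complexes I, III and IV and of ATP synthase, counted here as complex V, were examined in mouse cortex at postnatal day (P) 7. Members were taken by gene symbol alone, with no measured value: the table rows for Nduf genes of the a, b, c, s and v series, for Uqcr genes, for Cox4 to Cox8 genes and for Atp5 genes, with Ndufa4l2 left out. Of 24972 genes in the table, 82 matched and 81 were kept, 38 for complex I, 8 for complex III, 18 for complex IV and 17 for complex V. The symbols and the proteins did not match in every case. Ndufa4 is counted with complex I by its symbol but is placed in complex IV in current models of the enzyme, Cox7a2l joins complexes into supercomplexes, Atp5s is not a subunit of the synthase, and Ndufb4c is annotated as a processed pseudogene. Complex II carries none of these symbols, and transcripts of the mitochondrial genome were not analysed here.

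RNA of dissected cortex was sequenced in 3 libraries of Zmiz1f/f mice, labelled wildtype (WT), and 3 libraries of Zmiz1f/f;Emx1Cre mice, labelled Zmiz1-KO, all at P7. A further label says that progenitors were isolated from these cortices, while the tissue label and the extraction protocol give cortex, and the material is called cortex here. Both groups carry the floxed Zmiz1 allele, and the WT mice carry no Cre according to the labels. Emx1Cre acts in progenitors of the dorsal telencephalon, so excitatory neurons and glia derived from them can be recombined, while interneurons, microglia and vessel cells arise elsewhere and stay in the dissected tissue with an intact allele. The sources used here do not state whether a library is 1 mouse, and p-values measure only the spread between these libraries. Each group held 1 library with high Xist and 2 with low Xist. Values are normalized counts, and they summed to between 32661979 and 33239707 per library, from an estimated 15486928 to 17848076 reads. Values of a gene are given in the order of replicates 1, 2 and 3 of a group.

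Zmiz1, the gene targeted by the deletion, had 8119, 7929 and 7461 normalized counts in WT and 9944, 9779 and 9660.2 in libraries labelled Zmiz1-KO. Each library labelled Zmiz1-KO therefore stood above each WT library, opposite to the label. The log2 fold change, with its standard error (SE) from the limma fit, was 0.32 (SE 0.040, adjusted p = 0.00125 with limma), higher in 3 of 3 libraries. The value counts reads over the whole gene (chr14:25459185-25666743, GRCm38), and the exons removed by the allele are not given in the sources used here, so reads of a shortened transcript would still be counted. Every direction given below is that of the libraries labelled Zmiz1-KO against WT, with this reservation.

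Respiratory complexes sit in the inner mitochondrial membrane. Complex I takes electrons from NADH and passes them to ubiquinone, complex III passes them on to cytochrome c and complex IV to oxygen, and the proton gradient that they build drives ATP synthesis by complex V. Nearly all subunits are encoded in the nucleus, and the remainder in mitochondrial DNA, so that both genomes must supply each of these complexes. Neurons depend strongly on this route for the ATP that ion pumping and synaptic transmission use, and the complexes increase in the cortex as neurons mature after birth.

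Of the 81 members, 78 reached 10 normalized counts in 3 or more libraries and entered the test, with 15800 genes in all, and these 78 reached 10 in all 6 libraries. None of the 78 was called by limma at an adjusted p of 0.05 or less, against 0.411% of all tested genes (65 of 15800), and none was called by limma-voom. The smallest adjusted p among them was 0.236. At an unadjusted p under 0.05, 17 members were higher and 0 lower with limma, and with limma-voom 17 were higher and 0 lower as well. Over all tested genes 5.13% were higher and 5.84% lower at that p. The estimates leaned to 1 side. The log2 fold change was above 0 in 66 of 78 members, compared with 49.9% of all tested genes, and its median was 0.060, or 4.25%, compared with -0.00018. Groups did not overlap in 29 members, all of them higher in the libraries labelled Zmiz1-KO, while 8.1% of all tested genes were higher and 8.16% lower without overlap. The median standard error of a single member was 0.051, which is not the error of the median over the members. That median over the members had an SD of 0.023 between replicates. The 95% interval lay within 0.3 of 0 on the log2 scale, a change of at most 23.1% upward, for 72 of the 78 members. It did so for 58.0% of all tested genes. Among genes with a mean of at least 500 normalized counts, it did so for 97.3% of members and 90.0% of all tested genes. In tissue of mixed cells, fewer cells of a type and less RNA per cell cannot be told apart.

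**Figure D1:**
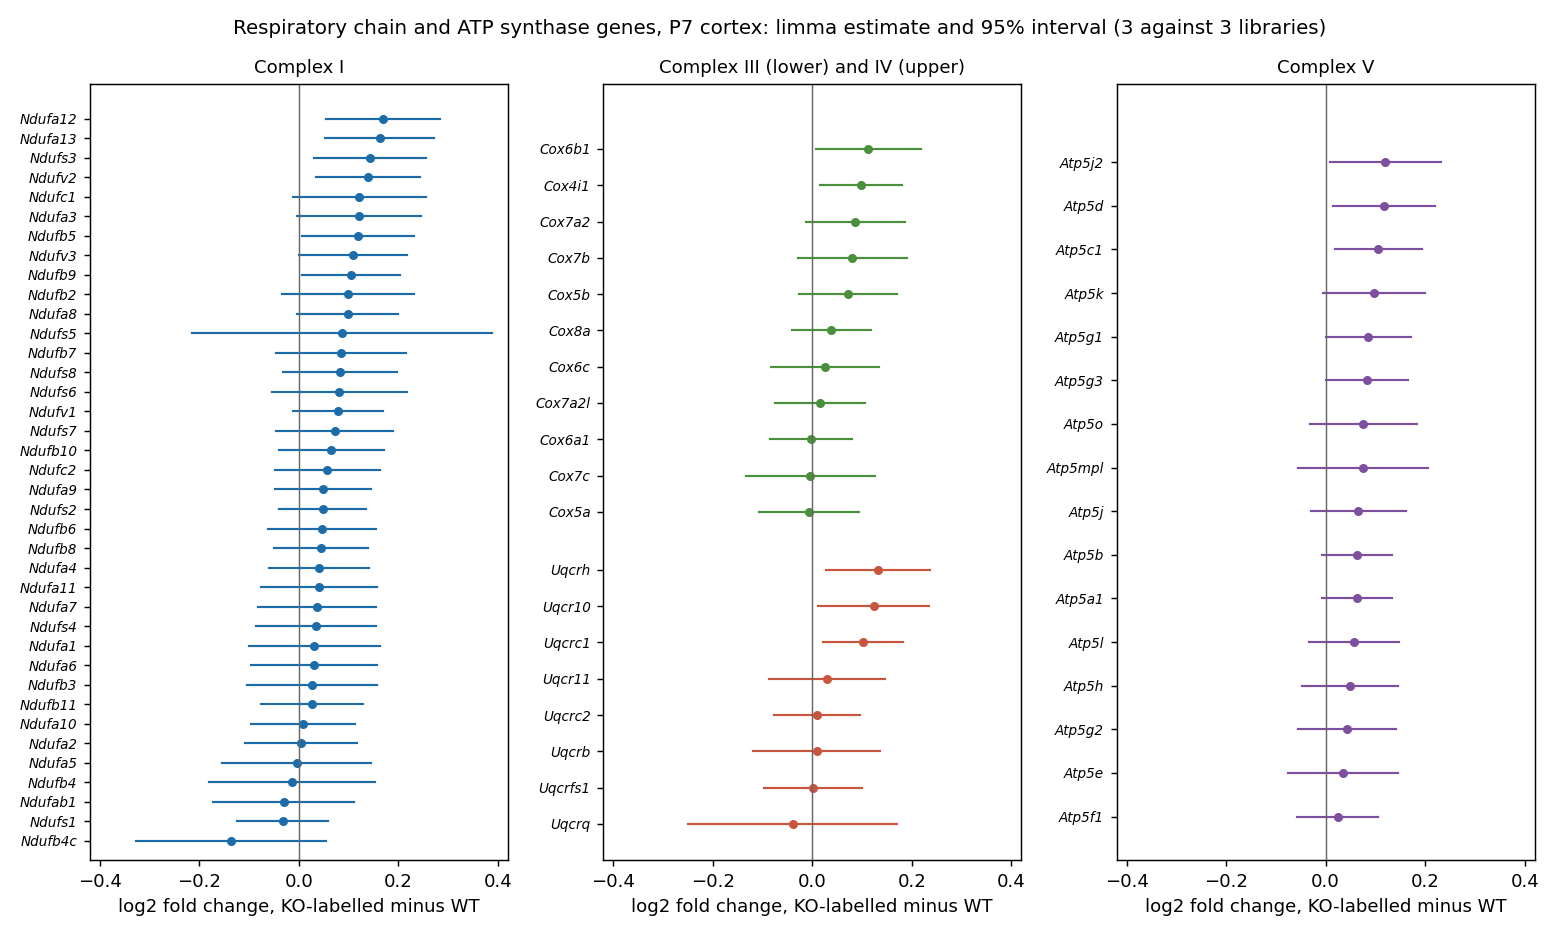
Log2 fold change of each member with a mean of at least 500 normalized counts, libraries labelled Zmiz1-KO minus WT, by complex. Points are limma estimates from 3 against 3 libraries and lines are 95% intervals, most points lie to the right of 0, and 17 of the intervals exclude 0 before adjustment.

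The shift was visible in the summed level of the members. They made up 0.780%, 0.774% and 0.809% of all normalized counts in the WT libraries and 0.817%, 0.829% and 0.828% in libraries labelled Zmiz1-KO. The ranges did not overlap, although the gap between the highest WT and the lowest other library was smaller than the spread within WT. Relative to the mean of the 6 libraries, the median deviation of the 78 members on the log2 scale was -0.033, -0.060 and 0.0032 in WT and 0.027, 0.041 and 0.044 in libraries labelled Zmiz1-KO. WT replicate 2 was lowest and WT replicate 3 lay near 0. Of the 78 members, 43 had their lowest value in WT replicate 2 and 18 in WT replicate 1, while 16, 21 and 23 had their highest value in replicates 1, 2 and 3 of the libraries labelled Zmiz1-KO. Without WT replicate 2, the median log2 fold change was 0.042, with 57 of 78 members above 0 and 6 at an unadjusted p under 0.05. The count at an unadjusted p under 0.05 was 10 without Zmiz1-KO replicate 1 and 7 without Zmiz1-KO replicate 3. In these 3 fits, 10.9%, 7.88% and 7.38% of all genes were at that p in either direction. With all 6 libraries it was 11.0%.

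**Figure D2:**
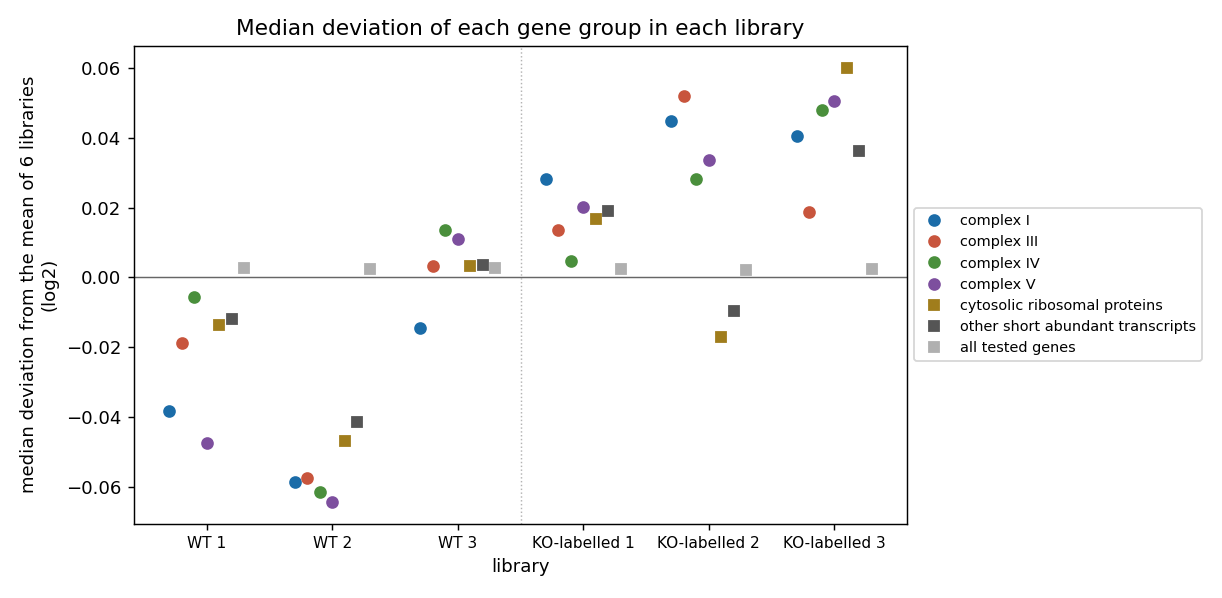
Median deviation of each gene group from its mean over the 6 libraries (log2, vertical axis) in each library (horizontal axis), with circles for the complexes and squares for comparison groups. The 4 complexes stand lowest in WT 2, at -0.057 to -0.064, where ribosomal protein genes and other short abundant transcripts are lowest too. The ribosomal protein group and the short transcript group share genes.

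Respiratory subunits are small proteins with short messages. The median transcript length of the tested members was 709 bases compared with 2796 over all tested genes with an annotation, and 73 of 78 members fell in the shortest quartile, up to 1750.0 bases. Fold changes followed length in the whole table, with a median log2 fold change of 0.026 in the shortest quartile of genes and -0.033 in the longest. They followed GC content as well, with a median of -0.040 in the quartile of lowest GC content and 0.025 in the highest. A comparison group of 455 other genes with transcripts under 1000 bases and a mean of at least 500 normalized counts, chosen after the values were seen, was above 0 in 312 genes with a median of 0.035. In that group 45 genes were higher and 10 lower at an unadjusted p under 0.05. Its median deviation was -0.012, -0.041 and 0.0037 in WT and 0.019, -0.0097 and 0.036 in libraries labelled Zmiz1-KO. The groups overlapped by library there, since Zmiz1-KO replicate 2 fell among the WT values. The same median did not overlap for the 78 members, nor for complexes I, III and V. In complex IV it did overlap, at 0.014 in WT replicate 3 and 0.0047 in Zmiz1-KO replicate 1. Cytosolic ribosomal protein genes are short abundant messages as well, and this list shares genes with that comparison group. They were above 0 in 74 of 97 tested genes with a median of 0.034, and none was called by limma. At an unadjusted p under 0.05, 12 were higher and 1 lower, and Rps2 was the most abundant by value. When a smooth trend on GC content and transcript length was removed from each library, the members' median was 0.031, compared with -0.0077 over all genes. Of the 78 members, 55 were above 0, and 4 were higher and 0 lower at an unadjusted p under 0.05. In that fit, 9.07% of all genes were at that p in either direction.

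Complex I, the NADH dehydrogenase and the largest of the complexes, had 33 of 38 members above 0, 7 of them at an unadjusted p under 0.05, and a median log2 fold change of 0.053, or 0.031 with GC content and transcript length corrected. Its 7 core subunits, which carry the flavin and iron-sulfur clusters that lead electrons to ubiquinone, were above 0 in 6 cases with a median of 0.079, and groups did not overlap in 5 of them. The other 31 members were above 0 in 27 cases with a median of 0.047, and groups did not overlap in 9 of them. Over all tested genes, 8.1% were higher and 8.16% lower without overlap. Ndufa12, an accessory subunit of the peripheral arm (chr10:94198720-94221443), had 1342, 1313 and 1421 normalized counts in WT and 1531, 1526 and 1522 in libraries labelled Zmiz1-KO. The groups did not overlap, and the libraries labelled Zmiz1-KO were close to each other. This gave a log2 difference of 0.17 (SE 0.054, adjusted p = 0.236 with limma), the largest estimate among complex I members. Ndufa13, an accessory subunit that is also known as GRIM-19 (chr8:69894180-69902558), stood at 1618, 1751 and 1764 normalized counts in WT and 1907, 1903 and 1930.0 in libraries labelled Zmiz1-KO. All libraries labelled Zmiz1-KO were above the WT libraries, of which replicate 1 was lowest. This was a log2 difference of 0.16 (SE 0.052, adjusted p = 0.236 with limma). Transcripts of Ndufa13 shared 25.6% of their 75-base stretches with the overlapping gene Tssk6, and those of Ndufa12 shared 14.6% with a processed pseudogene, so that part of their reads could not be assigned to a single gene.

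Ndufv2, a core subunit that holds an iron-sulfur cluster of the NADH-oxidising module (chr17:66078638-66101559), had 2189, 2129 and 2322 normalized counts in WT and 2390.0, 2516 and 2401 in libraries labelled Zmiz1-KO. Again the groups did not overlap. The estimate was a log2 difference of 0.14 (SE 0.049, adjusted p = 0.294 with limma), and no 75-base stretch was shared with another gene. Ndufa4 had the highest level per transcript length among the members counted here under complex I, at 9452 normalized counts per kilobase over the 6 libraries. Its values were 4437, 3905 and 4303 normalized counts in WT and 4317, 4319 and 4352 in libraries labelled Zmiz1-KO. WT replicate 2 was low and the other 5 libraries were alike, so that the groups overlapped, with a log2 difference of 0.041 (SE 0.048, adjusted p = 0.823 with limma) that turned to -0.013 without WT replicate 2. The 5 members of complex I with an estimate below 0 were Ndufa5, Ndufab1, Ndufb4, Ndufb4c and Ndufs1, named here after their values were seen, and the lowest estimate was -0.14 for the pseudogene Ndufb4c (limma adjusted p = 0.622). All of the 75-base stretches of Ndufb4c also occur elsewhere, mainly in Ndufb4, and the summed level of both was 1322 ± 45.3 in WT and 1263 ± 11.6 in the libraries labelled Zmiz1-KO (mean ± SD, n = 3).

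Complex III, the cytochrome bc1 complex, was represented by 8 members, of which 7 were above 0 and 3 had an unadjusted p under 0.05. The median log2 fold change was 0.020, and 3 members stood apart from the other 5. It was 0.021 with GC content and transcript length corrected, 0.050 without WT replicate 3 and 0.058 without Zmiz1-KO replicate 1. Uqcrc1, a core subunit on the matrix side (chr9:108936633-108949623), had 6114, 6325 and 6258 normalized counts in WT and 6709.7, 6695 and 6659 in libraries labelled Zmiz1-KO. The spread within each group was small and the groups did not overlap. The estimate was a log2 difference of 0.10 (SE 0.038, adjusted p = 0.310 with limma), and it fell to 0.053 with that correction. Uqcrh, the hinge subunit that bridges cytochrome c1 and cytochrome c, had 2428, 2537 and 2693 normalized counts in WT and 2726, 2768 and 2898 in libraries labelled Zmiz1-KO. Its groups touched without overlap, with WT replicate 3 just below Zmiz1-KO replicate 1, and gave a log2 difference of 0.13 (SE 0.050, adjusted p = 0.318 with limma). Uqcr10, a small accessory subunit, had 1781, 1693 and 1831 normalized counts in WT and 1972, 1972 and 1835 in libraries labelled Zmiz1-KO. Zmiz1-KO replicate 3 was only just above WT replicate 3, and the estimate was a log2 difference of 0.12 (SE 0.053, adjusted p = 0.393 with limma). Uqcrq, a small subunit that binds cytochrome b, had the highest level per transcript length in complex III (6611 normalized counts per kilobase). It had 2664, 2795 and 2658 normalized counts in WT and 2496, 3079.8 and 2371 in libraries labelled Zmiz1-KO. Here the libraries labelled Zmiz1-KO were the most and the least abundant of the 6, and the log2 difference of -0.039 (SE 0.091, adjusted p = 0.923 with limma) turned to 0.036 without Zmiz1-KO replicate 3. It was -0.15 without Zmiz1-KO replicate 2, where Uqcrq had the smallest adjusted p of the members (0.187 with limma). The partner core subunit Uqcrc2 and the Rieske iron-sulfur protein Uqcrfs1, named after their values were seen, had estimates of 0.0096 and 0.0013, so that the paired core subunits Uqcrc1 and Uqcrc2 differed in their estimates, a difference that was not tested.

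Complex IV, cytochrome c oxidase, had 15 tested members, of which 10 were above 0 and 2 had an unadjusted p under 0.05, with a median log2 fold change of 0.038. With GC content and transcript length corrected, this median was -0.0048, on the other side of 0. Cox4i1, the largest nuclear subunit and the one with the highest level per transcript length in the complex (chr8:120668222-120674207, 12063 normalized counts per kilobase), had 8677, 8376 and 8995 normalized counts in WT and 9481, 9110.2 and 9284 in libraries labelled Zmiz1-KO. The groups did not overlap. The estimate was a log2 difference of 0.098 (SE 0.039, adjusted p = 0.353 with limma), and 0.050 after the same correction. Cox6b1, a subunit on the intermembrane side that joins the monomers of the enzyme, had 4337, 3865 and 4377 normalized counts in WT and 4468, 4439.6 and 4678 in libraries labelled Zmiz1-KO. WT replicate 2 was far below the others, and the remaining WT libraries lay just under those labelled Zmiz1-KO. The estimate was a log2 difference of 0.11 (SE 0.050, adjusted p = 0.410 with limma), and leaving out each library in turn gave between 0.055 and 0.14. Cox7a2, the isoform of subunit 7a found outside heart and muscle, had 2735, 2726 and 2823 normalized counts in WT and 2778, 3041 and 2980.2 in libraries labelled Zmiz1-KO. Its groups overlapped, with a log2 difference of 0.086 (SE 0.047, adjusted p = 0.536 with limma) that fell to 0.053 when corrected. The mean of 5 members was lower on the log2 scale in the libraries labelled Zmiz1-KO, namely Cox5a, Cox6a1, Cox7c, Cox4i2 and Cox6a2, of which Cox5a and Cox7c are named after their values were seen, and none of the 5 was called by limma or had an unadjusted p under 0.05.

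Several places in complex IV can be filled by paralogous subunits that differ between tissues, and levels per transcript length showed which of them the cortex used. Cox4i1 stood at 12063 normalized counts per kilobase over the 6 libraries and Cox4i2, the isoform of lung and of low oxygen, at 49.5. Cox4i1 thus held 99.6% ± 0.00745 of the pair in WT and 99.6% ± 0.201 in the libraries labelled Zmiz1-KO (SD, n = 3). Cox6a1 stood at 11014 per kilobase and the heart and muscle isoform Cox6a2 at 116. For Cox6b1 and the testis isoform Cox6b2 the levels were 7056 and 88.7 per kilobase. Minor isoforms were thus present at a small fraction of the major isoform. Cox7a2 (4321 per kilobase) and Cox7a2l (4364) were at similar levels within their spread, and the muscle isoform Cox7a1 was at 39.6. Subunit 7b came from Cox7b at 2456 per kilobase.

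The minor isoforms had low values and wide errors. Cox7a1 had 16.0, 10.5 and 12.5 normalized counts in WT and 19.6, 16.8 and 18.1 in libraries labelled Zmiz1-KO. Its groups did not overlap, but with so few reads the log2 difference of 0.47 (SE 0.40, adjusted p = 0.733 with limma) had a 95% interval from -0.38 to 1.33. Cox6a2 had 91.4, 82.1 and 78.8 normalized counts in WT and 55.2, 75.6 and 91.3 in libraries labelled Zmiz1-KO, with overlapping groups and a log2 difference of -0.21 (SE 0.21, adjusted p = 0.790 with limma). Leaving out 1 library gave -0.37 to -0.014, nearest to 0 without Zmiz1-KO replicate 1. In Cox6b2 WT replicate 1 was low, with 22.9, 56.8 and 56.3 normalized counts in WT and 55.9, 55.8 and 46.7 in libraries labelled Zmiz1-KO. The log2 difference of 0.32 (SE 0.32, adjusted p = 0.781 with limma) turned to -0.10 without that library. Cox4i2 had 35.8, 33.6 and 37.3 normalized counts in WT and 33.5, 55.4 and 20.3 in libraries labelled Zmiz1-KO, and its log2 difference of -0.076 (SE 0.33, adjusted p = 0.962 with limma) turned to 0.27 without Zmiz1-KO replicate 3. For Cox6a1 the estimate was -0.0024 (SE 0.039, adjusted p = 0.991 with limma) with -0.022 to 0.018 when 1 library was left out and -0.046 with GC content and length corrected. Among the abundant isoforms, the log2 fold change was 0.016 for Cox7a2l, 0.080 for Cox7b and 0.038 for Cox8a, with limma adjusted p of 0.932, 0.614 and 0.781. Leaving out 1 library gave -0.0031 to 0.051, 0.029 to 0.12 and 0.030 to 0.052, in the same order. With GC content and length corrected they were -0.013, 0.092 and -0.0048, so that the direction turned for Cox7a2l and Cox8a. Only 3 members missed the filter on low values. Cox7b2, a testis paralogue of Cox7b, had 2.03, 0 and 2.05 normalized counts in WT and 11.9, 3.70 and 19.8 in libraries labelled Zmiz1-KO. The value of 1 read was about 1.83 to 2.11, so that these were at most about 10 reads, and the gene was not tested with the others. Cox8b, the heart and muscle isoform of subunit 8, was listed at 0 in 5 libraries and at 1.99 in Zmiz1-KO replicate 1. Cox8c was listed at 0 in all 6 libraries. Subunit 8 was thus represented by Cox8a, at 10973 normalized counts per kilobase.

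**Figure D3:**
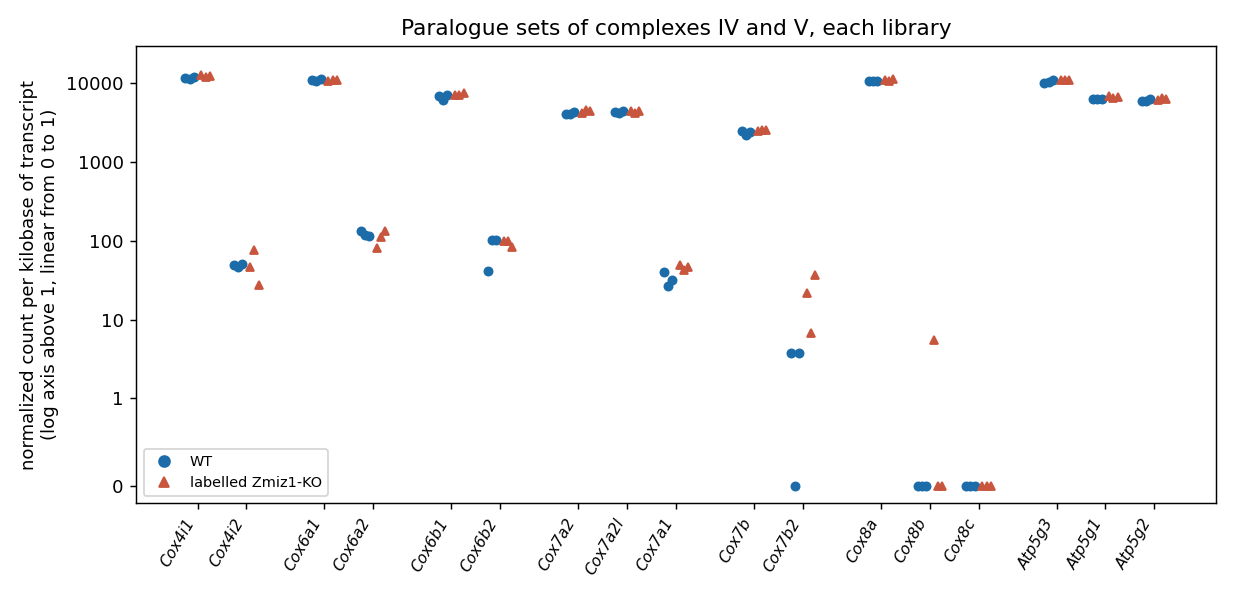
Normalized counts per kilobase of transcript (vertical axis, logarithmic above 1) for each paralogue set of complexes IV and V, with WT libraries as circles and libraries labelled Zmiz1-KO as triangles. In the complex IV sets 1 paralogue lies far above the others except for Cox7a2 and Cox7a2l, while the 3 Atp5g genes lie close together.

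Complex V, the ATP synthase, had a median of 0.066 on the log2 scale, with 16 of 17 members above 0 and 5 at an unadjusted p under 0.05. The correction for GC content and transcript length lowered the median to 0.041. The exception was Atp5s (-0.031), which is not a subunit. The catalytic F1 part comprises the alpha and beta subunits Atp5a1 and Atp5b and the central stalk of Atp5c1, Atp5d and Atp5e, and all 5 were above 0 (median 0.063). Atp5b, the catalytic beta subunit, had the highest level per transcript length of all 81 members (17133 normalized counts per kilobase). It had 31751, 31383 and 33196 normalized counts in WT and 33706, 33382 and 33540.0 in libraries labelled Zmiz1-KO. The groups did not overlap, WT replicate 3 being close to the libraries labelled Zmiz1-KO, and the log2 difference of 0.063 (SE 0.034, adjusted p = 0.518 with limma) had a small error but fell to 0.031 with that correction. Atp5c1, the gamma subunit that turns inside the F1 head (chr2:10056016-10080510), had 6430.2, 6134 and 6662 normalized counts in WT and 6782, 6829 and 7072 in libraries labelled Zmiz1-KO. There was no overlap between the groups. The estimate was a log2 difference of 0.11 (SE 0.041, adjusted p = 0.346 with limma). Atp5d, the delta subunit of the central stalk, had 4670.1, 4684 and 5282 normalized counts in WT and 5259, 5191 and 5395 in libraries labelled Zmiz1-KO. WT replicate 3 lay within the values of the libraries labelled Zmiz1-KO and the other WT libraries far below, with a log2 difference of 0.12 (SE 0.048, adjusted p = 0.376 with limma). It was 0.069 with the correction and 0.086 to 0.18 without 1 library, highest without WT replicate 3.

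In the membrane part, the 3 Atp5g genes code for the same subunit c of the rotating ring and differ in their import sequences. Atp5g3 provided the highest level at 10859 ± 419.9 normalized counts per kilobase, ahead of Atp5g1 at 6543 ± 239 and Atp5g2 at 6225 ± 207 (SD, n = 6). The levels of Atp5g1 and Atp5g2 were close against their SD, and 35.8% of the 75-base stretches of Atp5g2 occur in other genes, so their order is uncertain. Atp5g1 had 4357, 4347 and 4454 normalized counts in WT and 4735, 4545 and 4689 in libraries labelled Zmiz1-KO. For Atp5g3 the values were 7349, 7402 and 7846 normalized counts in WT and 7994, 7905 and 8024 in libraries labelled Zmiz1-KO. Both were without overlap between the groups, with log2 fold changes of 0.086 and 0.083 (limma adjusted p = 0.449 and 0.453). Atp5g2 had 2650.3, 2644 and 2819 normalized counts in WT and 2699.8, 2848 and 2811 in libraries labelled Zmiz1-KO, and its groups overlapped (0.043, limma adjusted p = 0.805), with 0.027 to 0.073 without 1 library. Corrected for GC content and length, the estimates of Atp5g1, Atp5g2 and Atp5g3 were 0.042, 0.0051 and 0.055. The shares of the 3 genes in their summed level differed little between the groups, with 45.8% ± 0.299 for Atp5g3 in WT and 46.1% ± 0.201 in the libraries labelled Zmiz1-KO (SD, n = 3). Atp5j2, subunit f beside the ring, had 2545, 2219.7 and 2398 normalized counts in WT and 2509, 2646 and 2620.1 in libraries labelled Zmiz1-KO. WT replicate 2 was lowest and WT replicate 1 lay within the other group, with a log2 difference of 0.12 (SE 0.053, adjusted p = 0.412 with limma) and 0.069 to 0.17 without 1 library, lowest without WT replicate 2. The 4 tested membrane subunits Atp5j2, Atp5k, Atp5l and Atp5mpl had a median of 0.086, and the 4 of the peripheral stalk, Atp5f1, Atp5h, Atp5j and Atp5o, which holds F1 against rotation, had 0.057.

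Many members have processed pseudogenes or overlapping neighbours. Of the 81 members, 39 shared at least 1 stretch of 75 bases with another annotated gene and 17 shared over 10% of theirs. The 39 tested members that shared none were above 0 in 34 cases with a median log2 fold change of 0.076, and the 39 that shared some were above 0 in 32 with a median of 0.047. Atp5o shared 34.2%, in large part with an antisense transcript, and Ndufb6 27.8% with Smim27. The library kit does not mark strand, so reads of a gene and of its antisense partner cannot be told apart. On the X chromosome lie Cox7b, Ndufa1 and Ndufb11, with estimates from 0.026 to 0.080. The genes named in this paragraph for shared sequence or position were chosen after their values were seen.

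Other genes of oxidative metabolism were read from lists. Complex II, succinate dehydrogenase, which also belongs to the citric acid cycle, had 4 of 4 genes above 0 with a median log2 fold change of 0.070. Sdha, its flavin subunit and the most abundant by value, had 6755, 6539 and 6439 normalized counts in WT and 6690.4, 7301 and 6736 in libraries labelled Zmiz1-KO. Its groups overlapped, with a log2 difference of 0.070 (SE 0.043, adjusted p = 0.590 with limma). Among further complex III to V genes and the electron carrier cytochrome c, 4 of 5 tested genes were above 0 (median 0.073, including Atp5mpl, also a member), and Atpif1, the inhibitor of the synthase, was the most abundant and had an estimate of -0.021. Citric acid cycle and pyruvate dehydrogenase enzymes were above 0 in 15 of 16 cases, with a smaller median of 0.029. Carriers and outer membrane proteins were above 0 in 7 of 8 (median 0.026), with the adenine nucleotide carrier Slc25a4 the most abundant at an estimate of 0.0076. Assembly factors, which build the complexes but are not part of them, were above 0 in 27 of 41 tested genes (median 0.028), and Ttc19, which acts on complex III, was the most abundant by value. Transcriptional regulators of mitochondrial biogenesis were above 0 in 6 of 13 cases, with a median of -0.0032 and Pprc1 the most abundant. Whether this list differed from the members was not tested. None of the genes in these 6 lists was called by limma. At an unadjusted p under 0.05 they held 1, 0, 1, 0, 3 and 0 genes that were higher and 0 that were lower, in the order given.

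Markers of cell types were read from lists too. All 6 interneuron markers were above 0 (median log2 fold change 0.28), none called by limma and 4 higher at an unadjusted p under 0.05, with Gad1, a GABA synthesis enzyme, the most abundant. Their summed level was 16506, 20714 and 18431 in WT and 21554, 23359 and 22139 in libraries labelled Zmiz1-KO. The libraries labelled Zmiz1-KO were above WT, and WT replicate 1 was lowest for each of the 6 genes. Markers of the neighbouring striatum, some of which cortex also expresses, were above 0 in 6 of 6 (median 0.33, 2 higher at an unadjusted p under 0.05, none called), and Ppp1r1b was the most abundant. They summed to 9224, 11995 and 12656 in WT and 13910.2, 14474 and 12993 in libraries labelled Zmiz1-KO. Here too WT replicate 1 was lowest for all 6 genes. All 6 excitatory neuron markers were below 0, although the most abundant, the vesicular glutamate transporter Slc17a7, was so by very little (-0.0000055, SE 0.042). The median was -0.12, 2 were lower at an unadjusted p under 0.05 and none was called, with sums of 43099, 36885 and 39201 in WT and 37854, 35674 and 36732 in libraries labelled Zmiz1-KO. The part of these cell types in the members' values was not tested.

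Meningeal fibroblast markers were above 0 in 5 of 6 (median 0.15, 3 higher and 1 lower at an unadjusted p under 0.05), and the collagen gene Col1a2, the most abundant, was called with a log2 difference of 0.32 (SE 0.047, adjusted p = 0.00464 with limma). The list shares Pdgfra with the oligodendrocyte lineage. It summed to 14398, 15125 and 15697 in WT and 16348, 17610.2 and 16212 in libraries labelled Zmiz1-KO. Every library labelled Zmiz1-KO was above every WT library in that sum, and its part in the members' values was not tested. General neuron markers were above 0 in 1 of 6 (median -0.037, Tubb3 the most abundant), astrocyte markers in 2 of 6 (median -0.040, Slc1a3 the most abundant), with the water channel Aqp4 called as lower (-0.29, SE 0.044, adjusted p = 0.00499 with limma). Medians were -0.16 for oligodendrocyte lineage, -0.11 for microglia, -0.066 for endothelial cells and pericytes, -0.14 for erythroid cells, -0.53 for choroid plexus and -0.11 for muscle, with 1 of 6, 2 of 6, 2 of 6, 1 of 4, 1 of 6 and 1 of 6 tested markers above 0. None of these markers was called. At an unadjusted p under 0.05, 3 oligodendrocyte lineage, 1 microglia, 2 astrocyte and 1 general neuron markers were lower and 1 endothelial or pericyte marker was higher. The oligodendrocyte lineage summed to 11387, 12889 and 11358 in WT and 10828, 10907 and 10525 in libraries labelled Zmiz1-KO, without overlap, and its part in the members' values was not tested either. In the 6 lists from oligodendrocyte lineage to muscle the most abundant were Pdgfra, Csf1r, Rgs5, Hba-a1, Ttr and Myh7, in that order. Choroid plexus markers varied most between libraries, with sums of 268, 8362 and 6333 in WT and 3170.0, 337 and 4826 in libraries labelled Zmiz1-KO, and did not follow the groups. No marker in these lists was at 0 in all libraries. The neuronal and cortical markers were present in each library.

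Nuclear respiratory genes are known as targets of shared transcription factors, so the promoters were searched for short motifs. RefSeq windows of GRCm38.p6, from 250 bases before to 50 after a transcription start, were matched by symbol for 64 of 81 members and held 27025 genes in all, and a gene counted once if any of its windows held the motif on either strand. The letters GCATGCGC, bound by NRF1, were found in 9 of 64 members (14.1%), in 3.05% of all genes with a window and in 5.38% of the tested genes among them. The core CCGGAAG of ETS factors such as GABP was found in 14 members (21.9%), compared with 9.93% of all genes and 17.4% of tested genes. For AAGATGGCG, read by YY1, it was 7 members (10.9%) compared with 1.64% and 3.00%. The estrogen-related receptor sequence TCAAGGTCA occurred in 1 member (1.56%), compared with 0.466% and 0.366%, and the cyclic AMP response element TGACGTCA in 4 (6.25%), compared with 2.03% and 3.36%. The GC box GGGCGG was found in 25 members (39.1%), near the 38.2% of all genes and below the 66.0% of tested genes. The motifs do not contain each other, but matches can overlap in a window. Tested members with at least 1 of the NRF1, ETS, YY1 and estrogen-related receptor motifs, 26 in number, had a median log2 difference of 0.069, and the 36 with none had 0.074. A match is only a description of the letters.

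The windows of 1 member of each complex are shown, taken because it had the smallest p there (RefSeq, GRCm38.p6, 5′ to 3′ on the strand of the gene, matches to the motifs above in capitals). They are those of Ndufa13 (chr8:69901971-69902270, minus strand), Uqcrc1 (chr9:108936398-108936697, plus strand), Cox6b1 (chr7:30626065-30626364, minus strand) and Atp5c1 (chr2:10080383-10080682, minus strand, the 1 of 2 windows with the lower coordinates). Cox6b1 takes the place of Cox4i1, for which the table held no window. The capitals mark 3 GC boxes in Ndufa13, of which 1 is on the opposite strand, a pair of overlapping NRF1 matches on both strands in Uqcrc1 and 1 ETS core on the opposite strand in Cox6b1, while the window of Atp5c1 held none of these letters.
Ndufa13: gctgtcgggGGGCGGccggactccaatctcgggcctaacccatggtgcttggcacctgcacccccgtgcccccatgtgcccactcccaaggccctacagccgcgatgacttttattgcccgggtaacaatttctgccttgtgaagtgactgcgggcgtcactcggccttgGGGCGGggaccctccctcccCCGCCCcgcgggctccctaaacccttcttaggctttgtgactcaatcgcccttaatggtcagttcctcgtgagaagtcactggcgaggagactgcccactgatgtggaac
Uqcrc1: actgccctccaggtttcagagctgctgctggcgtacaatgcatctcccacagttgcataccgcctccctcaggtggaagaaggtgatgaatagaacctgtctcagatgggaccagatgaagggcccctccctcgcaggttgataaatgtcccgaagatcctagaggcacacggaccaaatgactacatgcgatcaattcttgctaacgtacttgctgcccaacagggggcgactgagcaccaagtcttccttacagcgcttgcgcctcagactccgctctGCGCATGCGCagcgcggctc
Cox6b1: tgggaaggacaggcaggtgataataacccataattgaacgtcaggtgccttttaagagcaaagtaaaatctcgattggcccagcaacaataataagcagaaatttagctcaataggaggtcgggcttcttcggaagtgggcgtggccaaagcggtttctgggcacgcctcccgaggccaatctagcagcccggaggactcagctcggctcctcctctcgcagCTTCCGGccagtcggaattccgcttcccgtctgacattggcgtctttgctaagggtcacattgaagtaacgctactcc
Atp5c1: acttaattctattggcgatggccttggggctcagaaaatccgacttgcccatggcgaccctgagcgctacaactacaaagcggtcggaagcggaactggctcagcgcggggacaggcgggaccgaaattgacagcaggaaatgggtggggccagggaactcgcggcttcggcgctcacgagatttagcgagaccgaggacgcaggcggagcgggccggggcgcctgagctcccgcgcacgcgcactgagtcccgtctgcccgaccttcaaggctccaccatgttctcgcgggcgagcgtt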

How the data were processed

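RNA from P7 cortex was sequenced after poly(A) library preparation with a kit that does not mark strand. The authors aligned reads to the mouse genome (mm10, per the submitters' processing notes) with STAR and normalized gene counts with DESeq2, and they deposited the resulting signal per gene, given here as normalized counts, for 24972 genes and 6 libraries. Tool versions and the annotation are not given in the sources used here. Low values fell near whole multiples of 1.83 to 2.11, and high values did not, so whole reads were not recovered and depth was estimated as the sum of values divided by that step.

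Values were transformed to log2(value + 1) without rescaling, 15800 genes that reached 10 in 3 or more libraries were tested, and Zmiz1-KO-labelled libraries were set against WT by limma 3.58.1 in R 4.3.3 (prior variance following the mean, robust), two-sided, with Benjamini-Hochberg adjustment over all tested genes and a call at an adjusted p of 0.05 or less. Fold changes on this scale understate those of low genes. The fit was tested on simulated data. Per-gene exact permutation of 3 against 3 libraries cannot go below p = 0.1 and was not used. Transcript length (the median-length principal transcript), GC content, coordinates and shared 75-base stretches came from GENCODE M21 on GRCm38, the assembly of mm10, with Python 3.11.15 and pandas 2.3.3. Levels of members were compared between genes per kilobase, while the most abundant gene of each other list was taken by value, without regard to length. All 81 members and 15664 of 15800 tested genes had an annotation.

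The members, gene lists and marker lists were chosen with earlier results of these data known. Genes named are Zmiz1, in each complex the 3 members with the smallest p and the one with the highest level per length, members that missed the filter, the paralogue sets, and from other lists genes called, in most lists the most abundant gene, and genes needed to describe a list. Others are marked as chosen after their values were seen. Alternatives were another scaling (median ratios, upper quartile), limma-voom, other filters and pseudocounts, no robust estimation, a replicate block, an Xist covariate, a correction for GC content and length, an adjusted p of 0.1 and leaving out each library.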

Additional observations from a re-analysis of the deposited data

How the results depend on the processing

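Respiratory members called stayed at 0 under each of the 12 alternatives that kept all libraries, at an adjusted p of 0.1 and in each of the 6 fits without 1 library, and Zmiz1 was called as higher in all 18 refits. All genes called, 65 as reported, were 106 at an adjusted p of 0.1, 17 without robust estimation and 41 with the correction for GC content and length. Leaving out each library in turn gave 12 to 152 genes called, with 30, 17 and 12 without WT replicate 1, Zmiz1-KO replicate 1 and Zmiz1-KO replicate 3 and 152 without Zmiz1-KO replicate 2.

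With the replicate block, 168 genes and 0 members were called, and 117 genes with the block and the GC and length correction together. The numbers do not pair the libraries, since the correlations of same-numbered libraries were -0.0051, -0.11 and -0.0063, and no library correlated best with its own number.

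The median log2 fold change of the tested members was 0.031 with the GC and length correction, with or without the replicate block, and 0.042 to 0.075 without 1 library. For complex I it was 0.031 with that correction and 0.045 to 0.075 without 1 library. For complex IV it was -0.0048 with the correction, also with the replicate block, 0.071 without a filter, and 0.028 to 0.056 without 1 library. For complex III it was 0.021 with the correction and 0.013 to 0.058 without 1 library, and for complex V 0.041 and 0.051 to 0.088. The order of the complexes changed among these fits.

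Of 486 estimates of the 27 tested named genes under an alternative, 473 had the same direction and 13, of 7 genes, had the other, and no member among them was called. These were Cox6a1 (0.0080 with upper-quartile scaling, 0.0020 with the Xist covariate, -0.022 to 0.018 without 1 library), Cox7a2l (-0.013 with the GC and length correction with or without the replicate block, -0.0031 to 0.051 without 1 library), Cox8a (-0.0048 with that correction with or without the block), Cox6b2 (-0.10 to 0.54 without 1 library, lowest without WT replicate 1), Ndufa4 (-0.013 to 0.079, lowest without WT replicate 2), and Uqcrq (-0.15 to 0.036) and Cox4i2 (-0.43 to 0.27), both highest without Zmiz1-KO replicate 3. Upper-quartile scaling moves all genes alike, to a median of 0.010 over all tested genes, and that shift alone turns the estimate of Cox6a1. With the GC and length correction Uqcrc1 went from 0.10 to 0.053, Cox4i1 from 0.098 to 0.050, Cox7a2 from 0.086 to 0.053, Atp5d from 0.12 to 0.069, Atp5b from 0.063 to 0.031, Atp5g1 from 0.086 to 0.042, Atp5g2 from 0.043 to 0.0051 and Atp5g3 from 0.083 to 0.055, while Ndufv2 went from 0.14 to 0.15, Uqcrq from -0.039 to -0.076, Cox6a1 from -0.0024 to -0.046 and Cox4i2 from -0.076 to -0.12. Leaving out 1 library gave -0.37 to -0.014 for Cox6a2 (-0.21 with all), 0.029 to 0.12 for Cox7b (0.080), 0.069 to 0.17 for Atp5j2 (0.12), 0.086 to 0.18 for Atp5d (0.12) and 0.027 to 0.073 for Atp5g2 (0.043), and a pseudocount of 10 gave 0.30 for Cox7a1 (0.47). The cause was not tested. The median member had an estimated 1148 reads per library, with a counting SD of 0.043 on the log2 scale beside a median replicate SD of 0.053. These are values of single genes, and the median over the members had an SD of 0.023 between replicates.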
